A study of Drosophila melanogaster with 3 samples.

Results

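zfh2 and zfh1 are the zinc finger homeobox genes of Drosophila melanogaster: their proteins carry both C2H2 zinc fingers and homeodomains, which are different kinds of DNA-binding domain. The pair was followed through the RNA contacts of FMRP, the fly homologue of the fragile X protein, as mapped by enhanced CLIP. In the authors' deposited lists zfh2 was a target gene with 408 contact sites and zfh1 was neither a target nor held a single site. The 408 sites were chosen by position alone, as the sites on the plus strand of chromosome 4 whose coordinate lies between 501813 and 538295, out of 60497 sites in the whole list. zfh1 was searched on both strands over its whole span on chromosome 3R and gave 0 sites. The target list holds 1829 gene names, of which 1 belongs to this pair.

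zfh2 encodes a very large transcription factor. In flies it is known for patterning of the wing hinge and the leg, and for a role in the progenitor cells of the adult intestine, the stem cells and their undifferentiated daughters. zfh1 is the fly relative of the vertebrate ZEB repressors. It is known for somatic stem cells of the testis, for muscle precursors and blood cells, and in the gut for progenitors in which the microRNA miR-8 represses it together with esg. FMRP binds mRNAs and is best known as a repressor of their translation, and the fly protein acts in both neurons and stem cells.

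In enhanced CLIP, ultraviolet light joins protein to the RNA it touches, the protein is pulled down, and the attached RNA is sequenced next to an input cut from the same size range. The series has 3 libraries from adult flies: 2 immunoprecipitates of FMRP with FLAG beads, whose cell type is given as intestinal progenitor cells, and 1 size-matched input, given as all cells. All came from whole animals, with 200 flies (100 male and 100 female) ground for each. The labels do not give the tagged allele, the driver that expressed it, the fly strain or the age of the adults. Each site is 1 nt wide and carries a score that the authors computed without stating a unit, so here a score only tells higher from lower sites of that list. No value per library was used, depth is unknown, and no difference between libraries could be tested, so all comparisons below are descriptions without a replicate error. The labelled cell type was set against a short list of marker genes: all 6 progenitor markers held a site (hdc 313, Stat92E 97, Dl 83, esg 77, Sox21a 12 and klu 1), and 5 were targets. Over all protein-coding genes 16.4% held a site and 11.2% were targets. Markers of other cells held sites in 2 of 4 enterocyte, 1 of 3 enteroendocrine, 2 of 3 muscle, 2 of 3 neuronal and 0 of 3 haemocyte genes. All these short lists but the last were thus above that share too. Their site numbers were Vha16-1 121, alphaTry 43, pros 85, Mhc 20, sls 2, elav 24 and brp 1. All those of elav also lay in another gene's span. The part of these other cells in the results on zfh2 was not tested.

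FMRP sites reached from one end of zfh2 to the other, on 1 strand only. The span of the gene in the Release 6 gene table is 39065 nt. The first site lay 3 nt inside its lower end, the members ran over 36483 nt, and no site of the span was on the minus strand. Beyond the last member the plus strand went on with 28 further sites between 538534 and 540482, the last of them 392 nt before the upper end of the gene. These lie where the span of zfh2 overlaps that of Tdg, the neighbouring thymine DNA glycosylase gene, by 2543 nt, and for that reason are not counted among the members. Tdg itself had 239 sites on the minus strand, none of them inside the zfh2 span and the first of them 3921 nt beyond the last plus-strand site. All 28 plus-strand sites of Tdg lay inside the zfh2 span. With them the zfh2 span held 436 sites on its strand.

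The members fell into 8 blocks, parted by stretches of more than 1000 nt without a site. The blocks are named A to H in order of coordinate, which on the plus strand runs from the start to the end of the RNA. Together they took up 10412 nt, or 28.5% of the length from the first member to the last, and the 7 gaps between them held the remaining 26071 nt. Exons were not given for the gene, so whether the blocks are exons was not analysed here. The 1000 nt limit was chosen after the positions had been seen.

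Blocks A to C, at the start of the gene, were small. Block A (chr4:501813-501997) had 10 sites with a median score of 2.28 and none at or above the upper quartile of all sites in the list, which was 6.39. Block B (chr4:503969-504122) had 10 sites with a median of 5.18, and its highest, 22.5, was at position 503970. Block C (chr4:515580-515627) was a lone group of 13 sites in 48 nt, with 11457 empty nt before it and 5853 after it. At 27.1 sites per 100 nt it was the densest block of the gene, though the widths of other blocks include empty stretches between groups. Within block D, 13 sites lay in 29 nt. The scores of block C were low, with a median of 3.44 and a highest value of 8.97. Blocks A to C together held 33 of the 408 sites.

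Blocks D to H, in the downstream part of the gene, held the other 375 sites, 91.9% of the members. Block D (chr4:521481-523071) had 55 sites, block E (chr4:524360-526492) 69, block F (chr4:529695-531750) 73, block G (chr4:532780-535744) 110 and block H (chr4:537016-538295) 68. Density was even over D to G, between 3.23 and 3.71 sites per 100 nt, and reached 5.31 in H. The median score was 4.79 in D, 4.81 in E, 5.62 in F, 5.77 in G and 7.34 in H. From D to H the medians thus went up, hardly at all from D to E, while the quartiles of neighbouring blocks overlapped widely. It was not a rise along the whole gene, as the median of block B, 5.18, was above those of D and E. In block H 40 of 68 sites (58.8%) reached the upper quartile of the whole list, against 22 of 55 (40.0%) in block D. The share was 42.0% in E, 43.8% in F and 43.6% in G, so H stood apart. In block B it was 50% of 10 sites. The rise did not go on into the stretch shared with Tdg, where the median of the 28 sites was 3.55, the highest score was 9.47 and the density was 1.44 sites per 100 nt.

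**Figure D1:**
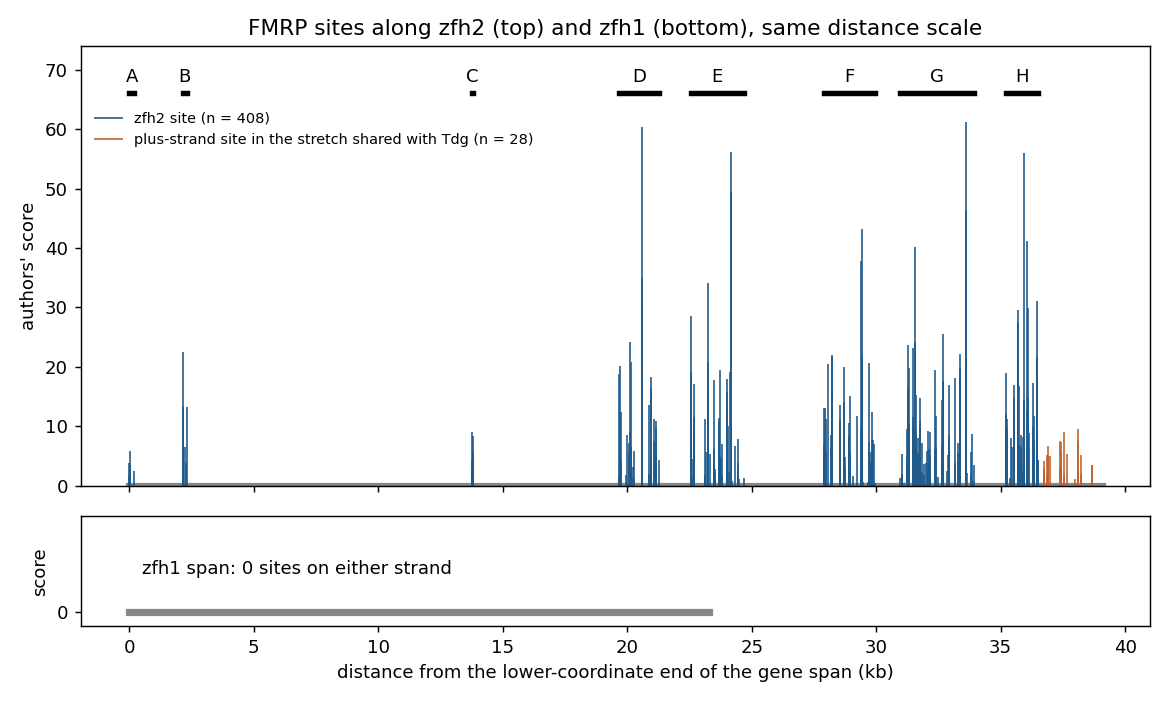
FMRP sites along zfh2 (upper panel) and zfh1 (lower panel), with distance from the lower-coordinate end of each gene span in kb on the x axis and the authors' score on the y axis; each vertical line is 1 site, black bars mark blocks A to H, and grey bars mark the gene spans. The 408 members of zfh2 crowd into blocks D to H, 28 lower-scoring sites follow in the stretch shared with Tdg, and zfh1 has 0 sites.

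**Figure D2:**
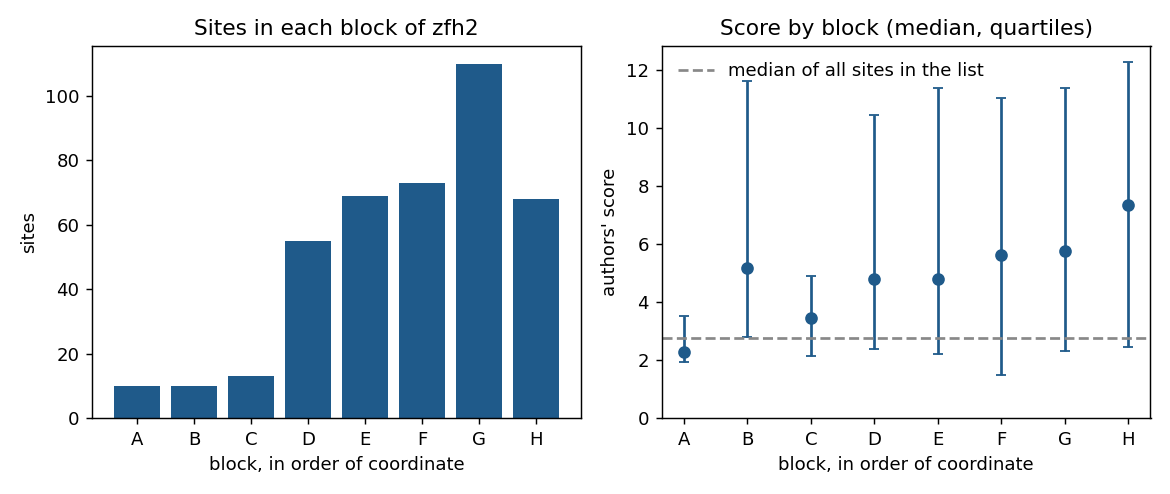
Number of sites (left, bars) and score (right, points at the median, bars from the lower to the upper quartile) in the 8 blocks of zfh2, in order of coordinate. Blocks A to C have 10, 10 and 13 sites and D to H have 55 to 110; the median score goes from 4.79 in D to 7.34 in H, and the dashed line is the median of all sites in the list, 2.78.

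Within the blocks, zfh2 sites came in short groups of neighbouring bases. Joining sites no more than 20 nt apart gave 114 clusters, of which 39 were single sites, 46 had 2 to 4 sites, 19 had 5 to 9 and 10 had at least 10. The median cluster had 3 sites and was 3 nt wide, and the widest ran over 69 nt. The 5 clusters with most sites held 63 sites, 15.4% of the members, so the contacts were spread over many places rather than gathered in a few. Of the members, 196 (48.0%) were followed by a site on the next base. Among the 122 protein-coding genes with at least 100 sites this share ran from 37.4% to 58.3% with a median of 49.4%, and zfh2 ranked 77th. The longest unbroken runs of zfh2 were 7 nt, at 515603 to 515609 in block C and at 522413 to 522419 in block D, against a longest run of 25 nt in the whole list.

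Single sites scored lower than sites in company. The median score was 2.48 for the 39 single sites, 6.41 in clusters of 2 to 4 sites, 5.69 in clusters of 5 to 9 and 4.48 in clusters of 10 or more. The order is thus not one of size. The top score within a cluster of 10 or more was never under 8.97 and had a median of 21.9, whereas no single site exceeded 20.4. The highest of 10 or more values tends to exceed a single value whatever their level. This contrast therefore does not compare the strength of sites.

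The 10 sites with the highest scores were spread over 5 blocks. The highest of the gene, 61.2 at position 535430 in block G, stood in a cluster of 8 sites, chr4:535408-535440. That cluster had 2 summits: its first 3 bases scored 10.4, 46.5 and 34.9, and 19 nt further on 4 adjacent bases scored 17.7, 61.2, 20.5 and 0.634, with a last site of 2.19 at 535440. The next highest score, 60.3, was at 522406 in block D, in a cluster of 13 sites at chr4:522391-522419 whose second summit, 35.0, was at 522415. In block E a cluster of 5 adjacent bases from 525982 scored 3.88, 56.2, 49.4, 10.5 and 0.328. Block H had 55.9 at 537739, and block F reached 43.2 at 531222. Beside these summits the score changed steeply from base to base, from 61.2 to 20.5 at 535431 and from 49.4 to 10.5 at 525985. In the whole list 388 sites scored above the zfh2 maximum.

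Scores on zfh2 lay above those of the list as a whole. The members had a median score of 5.41 with quartiles of 2.18 and 11.1, a lowest value of 0.0221 and a highest of 61.2. All 60497 sites had a median of 2.78 with quartiles of 1.08 and 6.39. Of the 408 members, 277 (67.9%) reached the median of the list and 178 (43.6%) its upper quartile, and 5 (1.23%) were in its top percent, which began at 47.8. The share of zfh2 sites was thus above that of the list at the median and the upper quartile and near it in the top percent. If sites are treated as independent, the 95% interval of the zfh2 median was 4.48 to 6.12. Many sites are neighbours, with 196 (48.0%) followed by a site on the next base, so this interval is likely too narrow. It does not cover the spread between libraries or animals. The level of zfh2 RNA was not measured here, and the input was labelled all cells while the immunoprecipitates were labelled progenitors. The scores and site number of zfh2 therefore cannot be told apart from high expression of the gene in progenitors.

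**Figure D3:**
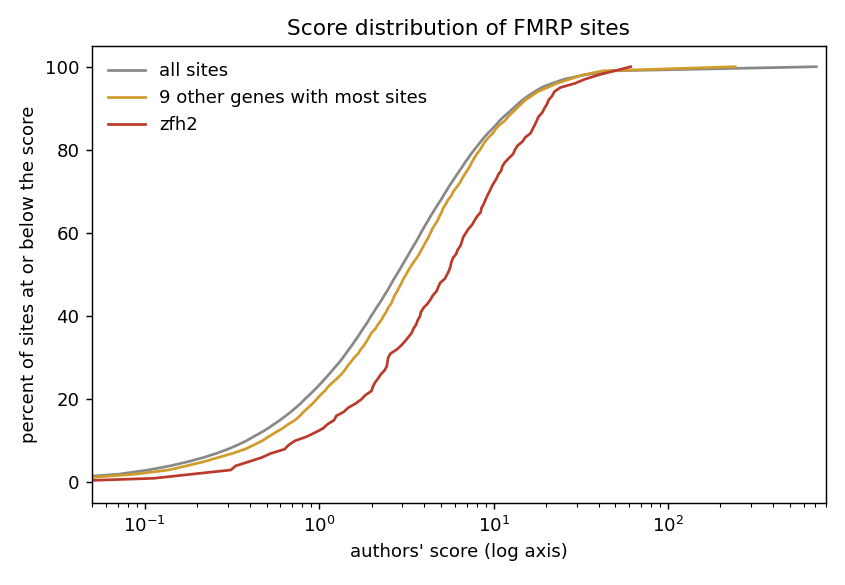
Cumulative distribution of the authors' score (x axis, log scale) as the percent of sites at or below it (y axis), for the 408 members of zfh2, for the sites of the 9 other genes among the 10 with most sites, and for all sites. The zfh2 curve lies to the right of both from low scores up to about the top percent, with a median of 5.41 against 2.78 for all sites, and ends at 61.2.

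Set against other genes, zfh2 ranked higher when only its better-scoring sites were counted than by number alone. Counting sites that lie in the span of a single gene, it was 6th of 2055 genes. Above it were shot with 552 sites, Tet with 514, Msp300 with 469, spen with 468 and kis with 446, and below it Syp with 342, mask with 326, mamo with 320 and Bruce with 317. Counting only sites at or above the median score of the list, zfh2 was 2nd with 277, after Tet with 390 and before shot with 265. It was also 2nd when only the upper quartile was counted, with 178 sites, between Tet with 287 and Syp with 151. shot, the spectraplakin gene of the cytoskeleton, had 22.3% of its sites in that quartile against 43.6% for zfh2. The share was 55.8% for Tet and 44.2% for Syp, so a high share was not particular to zfh2. Among the 122 genes with at least 100 sites zfh2 ranked 10th by median score, and none of the 9 above it except Tet had more than 237 sites. scyl led with a median of 15.3 over 136 sites, and bun, just ahead of zfh2, had 6.01 over 164.

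zfh2 is a long gene, and its length was taken into account by sites per kb of span. It had 10.4 sites per kb, against a median of 3.93 over the 935 protein-coding genes with at least 10 sites, which placed it 185th and above 80.2% of them. By median score it was 71st and above 92.4% of the same genes. Of 287 protein-coding genes whose span is within 20% of that of zfh2, 155 had no site at all, the upper quartile was 7 sites, and only spen and kis had more than zfh2. Their median scores were 3.03 and 2.84, against 5.41. Spans include introns, so sites per kb understates the density on the mature RNA most where introns are long.

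The genes most like zfh2 were found from 4 measures at once: number of sites, sites per kb, median score and the share of sites followed by one on the next base. Among 934 other protein-coding genes with at least 10 sites, Syp was nearest (distance 0.72 in standard deviations, against a median distance of 3.73). Syp encodes an hnRNP-like RNA-binding protein and had 342 sites, 6.33 per kb, with a median score of 4.99. Tet, the TET dioxygenase gene, came next at 0.87 with 514 sites, 5.53 per kb and a median score of 7.80, followed by CG3638 at 0.98 with 259 sites, 12.1 per kb and a median score of 3.41.

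On chromosome 4, the small dot chromosome, zfh2 was the gene with most sites. Its members were 17.5% of the 2325 sites of that chromosome and 48.9% of the 834 on its plus strand. Tdg followed with 210 unshared sites, the semaphorin receptor gene PlexA with 183, the Mediator subunit gene MED26 with 169 and gw, the GW182 gene of microRNA silencing, with 123. By median score zfh2 was 3rd of the 30 protein-coding genes of this chromosome with at least 10 sites, whose middle value was 2.40. The sites of the chromosome outside the zfh2 span and strand, 1889 in number, had a median score of 2.51. On its lower side the 2 nearest protein-coding genes, Asator, which encodes a kinase, and CG33941, had no site and were not targets. On the upper side Tdg and the next gene, Pur-alpha, which encodes a nucleic acid-binding protein and had 25 sites, were both targets.

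zfh1 gave no contact on either strand of its 23277 nt. The nearest sites outside it were 5066 nt below its span, a single minus-strand site at 30760860 that fell in no gene of the table, and 1299 nt above it, a minus-strand site at 30790501 inside wts. The span of wts, the Warts kinase gene of the Hippo pathway, lies 422 nt beyond that of zfh1. wts was a target with 22 sites, all on the minus strand, so the list holds sites in the next gene but not in zfh1. Of the other genes nearest to zfh1, Npc2g, Npc2h and dj-1beta also had none. An empty span was common at this length: of 375 protein-coding genes with a span within 20% of that of zfh1, 219 (58.4%) had no site and 108 (28.8%) were targets. Over all 13962 protein-coding genes, 16.4% held at least 1 site in their span and 11.2% were on the target list. The level of zfh1 RNA in these flies was not measured here, so the empty span cannot be told apart from low expression, nor, in lysates of whole flies, fewer cells with zfh1 RNA from less of it per cell.

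**Figure D4:**
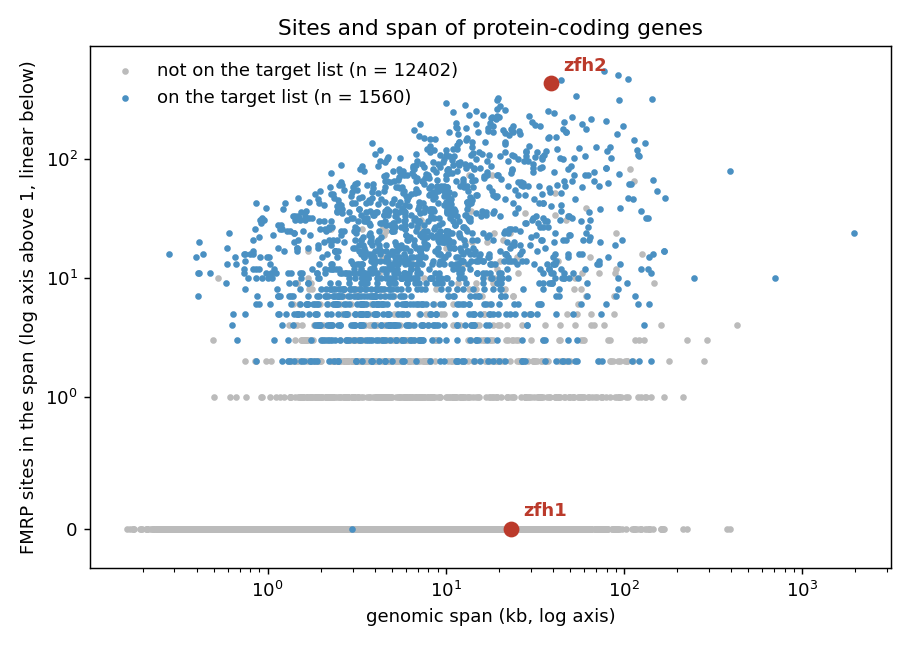
Number of FMRP sites in the span (y axis, log scale above 1 and linear below) against genomic span in kb (x axis, log scale) for 13962 protein-coding genes, in blue where the gene is on the authors' target list. zfh2, with 436 sites in its span, is near the upper edge of the cloud and zfh1 lies at 0 with many genes of similar length.

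The contrast between zfh2 and zfh1 was set in the wider families to which both belong. Of 82 homeobox genes, 9 were targets, a share close to the 11.2% of all protein-coding genes, and 18 had a site (22.0%, against 16.4%). zfh2 alone held 61.2% of the 712 sites in the homeobox list. Ptx1, a Pitx homologue, and pros, which specifies enteroendocrine cells in the gut, came next with 87 and 85 sites and median scores of 2.81 and 1.81. vnd, a gene of neural patterning, had 37, of which 16 were not shared with another gene's span, and ct, cad, Lim1, oc and so had between 5 and 13. cad, which specifies posterior identity and acts in the gut epithelium, had 12 sites of high score with a median of 18.6. Genes of the Antp and bithorax complexes (Antp, Ubx, abd-A, Abd-B, Dfd, Scr, lab and pb) had none. Median site number was 0 in the list, as over all protein-coding genes.

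**Figure D5:**
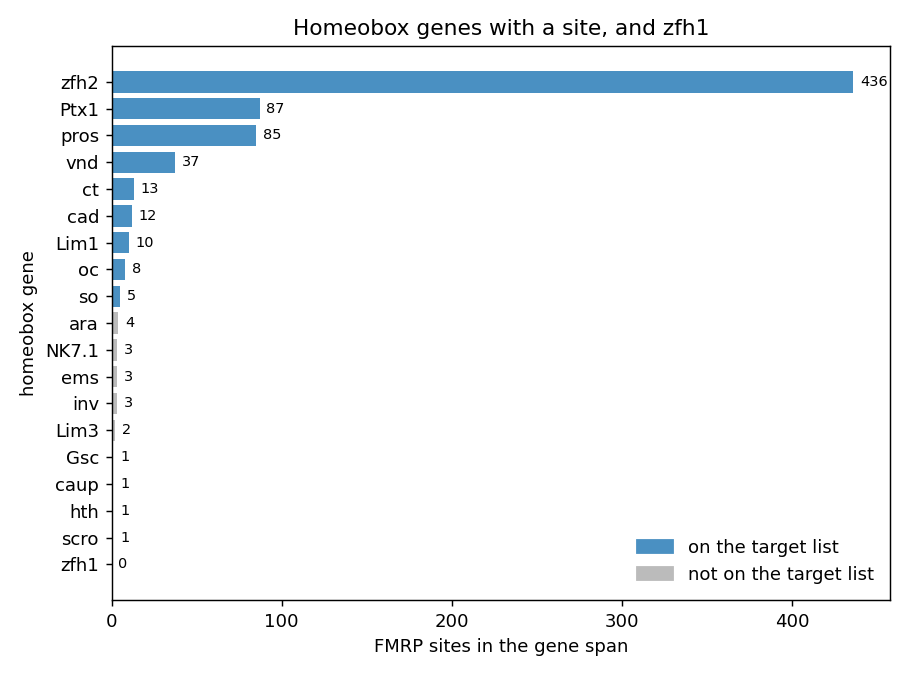
FMRP sites in the gene span (x axis, with the number printed at each bar) for the 18 homeobox genes with at least 1 site and for zfh1, in blue where the gene is on the target list. zfh2 has 436 sites, the next gene, Ptx1, has 87, and zfh1 has 0.

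Of 51 C2H2 zinc finger transcription factor genes 20 were targets (39.2%, against 11.2% of all protein-coding genes) and 26 had a site (51.0%, against 16.4%). Of protein-coding genes with a span within 20% of that of zfh2, 33.8% were targets and 54.0% had no site. The list holds long and short genes, and the part of gene length in its shares was not tested. After zfh2, mamo had 320 sites, shn, the Schnurri gene of BMP signalling, 198, and lola 180. Their median scores on unshared sites were 2.83, 1.99 and 2.96, all under the 5.41 of zfh2. The stem cell gene esg, a Snail family member, was the reverse case, with 77 sites and a median of 23.3, while its relatives sna and wor had 2 and 0 sites. As between zfh2 and zfh1, then, members of a family differed from many sites to none.

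Transcription factor genes of intestinal progenitors and of the lineage they feed were targets in 16 of 23 cases (69.6%, against 11.2% of all protein-coding genes), and 17 held a site (against 16.4%). zfh2 had the most, and Myc (191), lola (180) and ttk (116) followed, with sites shared with other spans included. All 191 sites of Myc also lay in the span of another gene, and 190 of them were on the plus strand. zfh1 was one of the 6 genes of this list without a site. The lists were made with earlier results of these data known and were not matched for span. Their shares therefore describe the members and support nothing beyond them.

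Several genes tied to zfh1 had sites although zfh1 had none. Of 16 genes listed as its partners, its regulators or factors of the same tissues, 9 were targets and 10 had a site, against 11.2% and 16.4% of all protein-coding genes. Stat92E, the JAK-STAT transcription factor, which acts upstream of zfh1 in testis stem cells, had 97 sites, esg 77 and CtBP, a corepressor that binds Zfh1, 67. Ptp61F, a phosphatase that restrains JAK-STAT signalling, had 32 in its span. Of these 24 were on the minus strand and 8 on the plus strand, so not all can be on its RNA. The kinase gene hop had 15, the receptor gene dome 4 and the feedback inhibitor gene Socs36E 3. The microRNA gene mir-8, whose product represses zfh1, was itself on the target list with 3 plus-strand sites. The muscle and blood factors Mef2, twi, tin and srp had none.

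Patterning genes of the wing and leg, where zfh2 acts, were listed as well. Of 16 such genes, zfh2 included, 4 were targets and 8 had a site, against 11.2% and 16.4% of all protein-coding genes. Apart from zfh2 these were Stat92E with 97 sites, Dl, the Notch ligand gene, with 83 and ct with 13, and N, bowl, hth and vg, which had 1 or 2 sites each and were not targets. wg, dpp, nub, rn, Dll, dac, ap and tsh had no site. With zfh2 left out, 3 of 15 genes were targets. The list was not matched for span. Of protein-coding genes similar in span to zfh2, 33.8% were targets and 54.0% had no site. For genes similar in span to zfh1 the values were 28.8% and 58.4%. The shares of the list, 25% targets and 50% with a site, were not far from these. The part of gene length in them was not tested.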

How the data were processed

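The libraries were 2 FMRP immunoprecipitates and 1 size-matched input. The authors deposited a list of 60497 sites of 1 nt with a strand, a constant and a score of unstated unit, and a list of 1829 target gene names. The submitters' processing notes name STAR 2.7.3a, cutadapt 2.9, SAMtools 1.10, DESeq2 and UMI-tools but not what each was used for. The site caller, genome build, pooling of immunoprecipitates, use of the input and target rule were not given in the sources used here. An undocumented score threshold would set site numbers. Names and spans came from the NCBI RefSeq gene table of Release 6, which gives no strand or exons. Target names were matched by symbol (1753), synonym (65) or locus tag (11). With sites as deposited, 1823 of 1827 target genes on the main chromosomes held a site, against 458 and 457 after shifts of 100000 nt either way, so these spans were used with the site coordinates.

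Members were taken by coordinate and strand. Ranks used sites lying in 1 span only (52112 sites), and numbers for gene lists and plots used all sites in a span. Counting and clustering were tested on simulated data, with all 200 gene counts and cluster numbers recovered. Python 3.11.15, numpy 2.4.6 and pandas 2.3.3 were used. No test was run because there is no value per library, and no base sequence was analysed here. Genes named were the members, the 10 genes with most sites, the 2 nearest protein-coding genes on each side, the 4 list members with most sites and the 3 genes most like zfh2. Others, such as wor or cad, were named after their values were seen. The members and lists were chosen with earlier results of these data known.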

Additional observations from a re-analysis of the deposited data

How the results depend on the processing

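Values here are for the whole zfh2 span on the plus strand (436 sites, 127 clusters, median score 5.18), with the stretch shared with Tdg included. The ranks and the share in blocks D to H are exceptions and rest on the 408 members alone. Of 23 alternatives, 13 stayed close to the value. Close means within 1.5 times for numbers and ranks, and within the 95% interval for median scores and percentages. That interval treats neighbouring sites as independent. The 13 include all 4 for zfh1, which had 0 sites in each. For zfh1 only the search of both strands could have differed, as the other cuts can only take sites away. Keeping only sites at or above the upper quartile of the list left 184 sites. Keeping those at or above its median gave a median score of 8.10, as the cut itself raises it, and moved the rank by site number from 6 to 2. Taking the highest score of each cluster gave a median of 8.58. Joining sites 1, 50 or 100 nt apart gave 227, 75 and 51 clusters, and at 100 nt the 5 largest held 26.8% of sites rather than 14.4%. Alternatives added after seeing the data parted blocks at 500 nt, again 8 blocks, or at 2000 nt, which gave 4. At 2000 nt blocks F, G and H are joined, so block H is not seen on its own. A further alternative counted 1 site for each cluster, which put 94.7% in blocks D to H. Coding length in place of span was not run, as no protein lengths were given, and score, clusters and ranks of zfh1 have no value without sites. No paired analysis was possible because the lists carry no values per library. Depth is unknown, so an empty span shows no listed site, not the absence of contact.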

Other observations

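Whether a gene was on the authors' target list went with its number of sites at the low end. None of the 273 protein-coding genes with exactly 1 site in the span was a target, and 57 of the 235 genes with 2 sites were. The homeobox genes Gsc, caup, hth and scro, with 1 site each, are among the former, and the score of the single caup site, 53.2, was above that of all but 4 of the zfh2 members. Of the 11677 protein-coding genes with no site in the span, 1 was on the target list, an exception to a minimum number of sites. The rule behind the target list was not given, so such a minimum is a reading of these numbers and not a documented step.

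The 3 sites of mir-8 scored 4.35, 27.8 and 8.50. All lay on the plus strand and also within the span of the non-coding gene lncRNA:CR43650, so they cannot be assigned to the microRNA precursor alone.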
